A study of Drosophila melanogaster with 12 samples.

Results

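Adult accessory glands that expressed activated Yorkie together with Dp (Yki*+Dp glands) were compared with glands that expressed GFP and P35 alone (control glands), across all genes of a table of TPM values, which are transcript abundances corrected for length and scaled to the same total in each library. The comparison takes 6 of the 12 libraries of the series, 3 from Yki*+Dp glands and 3 from control glands, and 8128 of the 14323 genes in the table reached the minimum level and were tested. The accessory gland is the paired secretory organ of the Drosophila male reproductive tract that makes most seminal fluid proteins, and it is used here as a counterpart of the mammalian prostate. Its adult epithelium is made of large binucleate main cells and fewer secondary cells, wrapped in a muscle sheath, and the cells no longer divide.

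In every line a heat-shock flippase (y,w,hs-flp12) cuts out a stop signal so that the actin promoter turns on Gal4 (Act>CD2>gal4), which then drives a nuclear GFP and the caspase inhibitor P35, so control glands carry all of these. The Yki*+Dp line adds Dp and a Yki in which the residues that receive inhibitory phosphorylation are mutated. Its label also lists an E2F1 transgene, which according to the study was no longer induced efficiently in this stock. A further 3 libraries came from glands with unmutated Yki (YkiWT) and 3 from glands with Myc, E2f1 and Dp (Myc+E2f/Dp), and both were used only as direct comparators. Virgin males grown at 25 °C were heat-shocked at 37 °C for 20 min, glands with visible GFP were dissected at day 10 without the ejaculatory duct, and 80 to 100 glands were pooled per library. The actin promoter acts in other tissues of the same male as well, and the control line is a separate stock, so that differences of genetic background and of transgene cannot be told apart.

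Yorkie (Yki) is the transcriptional co-activator at the end of the Hippo pathway. The kinase Hippo activates the kinase Warts, which phosphorylates Yki and keeps it in the cytoplasm, and unphosphorylated Yki enters the nucleus and acts with the DNA-binding protein Scalloped on genes for growth, survival and for the pathway's own upstream components, such as expanded. Dp is the partner that E2f proteins need to bind DNA at cell cycle genes. Septate junctions, which recur below, are the occluding junctions of insect epithelia and stand in for vertebrate tight junctions.

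The 3 Yki*+Dp libraries held 7453 to 7513 genes at 1 TPM or more, and the 3 control libraries 6902 to 7257. Across genes, log2 values correlated at 0.990 to 0.994 between Yki*+Dp libraries and at 0.989 to 0.994 between control libraries, against 0.948 to 0.968 between the groups. Because abundant secretory transcripts take a different share of each library, the libraries were rescaled by the median of ratios, with factors of 0.928 to 0.989 for Yki*+Dp and 1.13 to 1.36 for control. With TPM as deposited the median log2 fold change of all genes was 0.30, against -0.0029 after scaling, and changes are given relative to the scaled median. TPM values in the text are as deposited and hold no read depth, so no counting interval can be given. Fold changes are on log2(scaled TPM + 1), which understates changes of genes with low TPM, and each is given with its standard error, from 3 libraries per group. A gene was called higher or lower at a limma p-value adjusted over all tested genes (Benjamini-Hochberg) under 0.05 when its log2 fold change was also 1 or more, or -1 or less.

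Far more genes were called higher than lower. In Yki*+Dp glands 449 genes were called higher (5.52% of the tested genes) and 119 called lower (1.46%), so that 79.05% of the called genes were higher. On TPM as deposited 722 were called higher and 48 lower, or 93.77% higher. In 567 of the 568 called genes the 3 Yki*+Dp libraries lay entirely above or below the 3 control libraries, where at any fold 27.8% of all tested genes lay above and 24.7% below. Among genes with a mean of at least 100 TPM in either group, 43 were called higher and 22 lower. At an adjusted p under 0.05 with no condition on the fold, 1686 genes had a positive and 1481 a negative log2 fold change. In such whole-gland RNA, fewer cells of a type and less RNA per cell cannot be told apart.

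**Figure D1:**
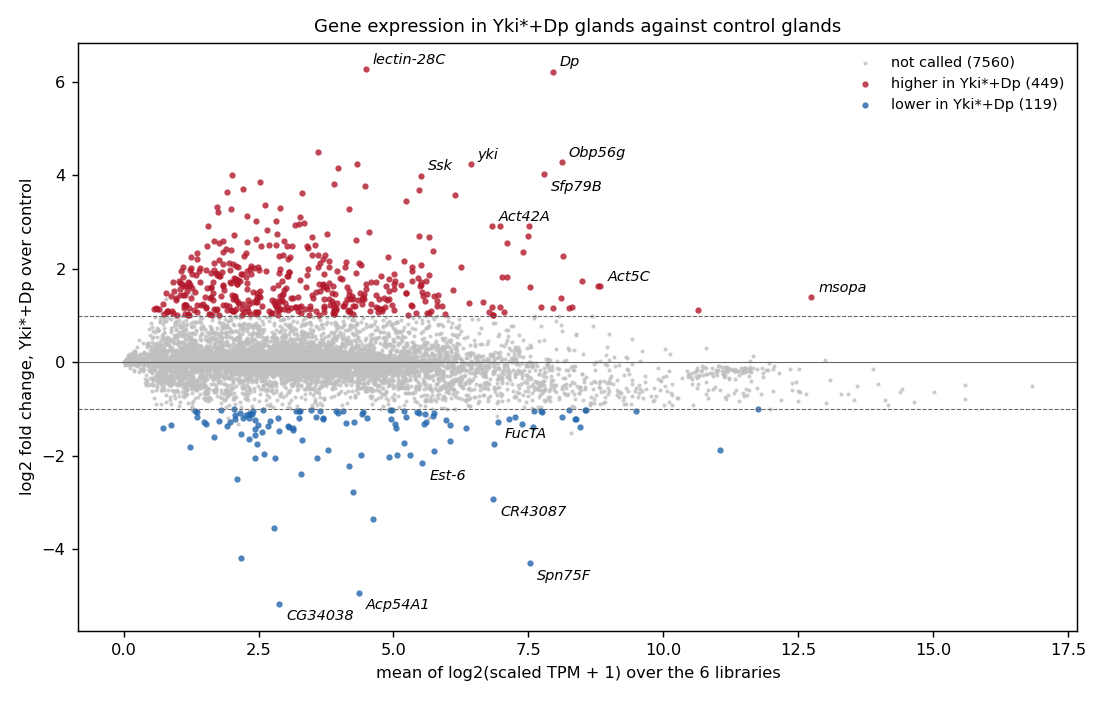
Each point is 1 of the 8128 tested genes, with its mean log2(scaled TPM + 1) over the 3 Yki*+Dp and 3 control libraries on the x axis and the log2 fold change of Yki*+Dp over control on the y axis. The 449 genes called higher (red) reach a log2 fold change of 6.26 for lectin-28C, the 119 called lower (blue) reach -5.17 for CG34038, and dashed lines mark a log2 fold change of 1 in either direction.

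The transgene transcripts matched the labels for Yki and Dp. Dp was at 2327, 2548 and 1866 TPM in Yki*+Dp glands, against 19, 24.5 and 23.4 TPM in control glands (log2 fold change 6.21 ± 0.20, adjusted p = 1.07e-08), and the transcript Dp-RC made up 1847, 1961 and 1437 TPM of the Yki*+Dp values. The yki gene was at 348, 431 and 394 TPM in Yki*+Dp glands, against 14.2, 16.5 and 14.7 TPM in control glands (log2 fold change 4.23 ± 0.40, adjusted p = 1.52e-05). The transcript yki-RG held 318, 397 and 361 TPM in Yki*+Dp glands and 2.59, 2.25 and 2.92 TPM in control glands. YkiWT glands held 77.7, 70.5 and 163 TPM of yki, so the activated line also had more yki RNA (log2 fold change 1.68 ± 0.40, adjusted p = 0.00996). E2f1 was at 18.5, 18.5 and 22.8 TPM in Yki*+Dp glands, against 16.6, 21.2 and 16.5 TPM in control glands (log2 fold change -0.23 ± 0.14, adjusted p = 0.226). Its transcript E2f1-RD, at 583, 555 and 411 TPM in Myc+E2f/Dp glands, was listed at 0 in all Yki*+Dp and control libraries. On TPM as deposited the log2 fold change of E2f1 was 0.13. In Myc+E2f/Dp glands, whose label lists no Yki transgene, yki stood at 122, 176 and 55.9 TPM, of which yki-RG held 83.6, 132 and 17.3 TPM, and the source of these reads was not tested.

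The largest rise belonged to lectin-28C, a member of the C-type lectin family (2L:7857077-7860120, plus strand; coordinates here are from Ensembl BDGP6.54). Its level was 156, 278 and 196 TPM in Yki*+Dp glands, against 1.13, 1.62 and 1.05 TPM in control glands (log2 fold change 6.26 ± 0.27, adjusted p = 1.28e-07), and YkiWT glands held 3.61, 7.65 and 4.89 TPM. TwdlE, a Tweedle cuticle protein gene, overlaps it on the opposite strand (2L:7857957-7860839, minus strand). TwdlE stood at 7.82, 18.3 and 11.7 TPM in Yki*+Dp glands, against 0.12, 0.438 and 0.171 TPM in control glands (log2 fold change 3.27 ± 0.27), and whether reads of this overlapping pair were fully separated was not tested. Both genes kept the groups apart in every library, as 567 of the 568 called genes did.

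Other genes with the largest rises encode secreted or membrane proteins or have only a CG number. Obp56g, a seminal fluid odorant-binding protein, was at 1240, 1456 and 1152 TPM in Yki*+Dp glands, against 54.2, 99.5 and 22.3 TPM in control glands (log2 fold change 4.28 ± 0.58, adjusted p = 0.000166). Sfp79B, a short seminal fluid protein gene, was at 977, 890.3 and 928 TPM in Yki*+Dp glands, against 66.7, 35.1 and 34.4 TPM in control glands (log2 fold change 4.02 ± 0.53, adjusted p = 0.000152). Just downstream of Sfp79B on chromosome 3L lies msopa, a male-specific gene with opa repeats, at 12490, 10120 and 12190 TPM in Yki*+Dp glands, against 4121, 3218 and 2891 TPM in control glands (log2 fold change 1.39 ± 0.22). These 3 abundant transcripts moved against most seminal fluid genes, described below. The neuronal-named gene fax (failed axon connections) was at 44.9, 78.8 and 54.1 TPM in Yki*+Dp glands, against 1.92, 3.12 and 2.28 TPM in control glands (log2 fold change 3.81 ± 0.32). The receptor gene mthl2, of the methuselah family, was at 13.8, 26.7 and 11.8 TPM in Yki*+Dp glands, against 0.22, 0.257 and 0.206 TPM in control glands (log2 fold change 3.70 ± 0.24). Idgf4, a secreted chitinase-like growth factor, was at 122, 209 and 177 TPM in Yki*+Dp glands, against 6.89, 17.7 and 5.93 TPM in control glands (log2 fold change 3.69 ± 0.51). The largest rises were named among called genes whose 3 Yki*+Dp libraries all lay above the control libraries, so that separation was set by the choice.

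Of the unannotated genes, CG13117 was at 55.8, 78.9 and 47.9 TPM in Yki*+Dp glands, against 1.15, 1.5 and 1.17 TPM in control glands (log2 fold change 4.49 ± 0.51). CG15210 was at 84.5, 117 and 72.7 TPM in Yki*+Dp glands, against 3, 3.7 and 2.13 TPM in control glands (log2 fold change 4.24 ± 0.37). CG18557 (4.15), CG34301 (3.85) and CG9743 (3.77) were the others among the 15 largest rises. CG43125 was the sharpest on-and-off case, at 17.1, 18.6 and 12.5 TPM in Yki*+Dp glands, against 0, 0 and 0.011 TPM in control glands (log2 fold change 4.01 ± 0.14, adjusted p = 2.02e-08). CG43125 was at 0, 0 and 0.012 TPM in YkiWT glands but at 8.39, 12.5 and 9.71 TPM in Myc+E2f/Dp glands, so it passed 1 TPM in both lines with a Dp transgene and in neither line without one. Genes with a CG number made up 2934 of the tested genes, of which 157 (5.35%) were called higher and 72 (2.45%) lower, beside 5.52% and 1.46% of all genes.

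Within the Hippo pathway most of the positive folds stayed under the fold threshold. Of 26 tested pathway components, 3 were called higher (11.54%, beside 5.52% of all genes) and none lower. These were yki itself, which is the transgene of this line, ex and Tgi. The median log2 fold change was 0.12, beside -0.0029 over all genes. With no condition on the fold, 11 of the 26 had a positive and 1 a negative fold at an adjusted p under 0.05 (limma). Over all 8128 tested genes these counts were 1686 and 1481. On TPM as deposited 6 of the components were called higher. Expanded (ex), an upstream activator of the Warts kinase and a standard readout of Yki activity, was at 10.8, 15 and 13.3 TPM in Yki*+Dp glands, against 2.36, 3.67 and 2.76 TPM in control glands (log2 fold change 1.54 ± 0.11, adjusted p = 2.81e-06). In the comparators ex overlapped control, at 2.38, 3.44 and 2.81 TPM in YkiWT glands and 3.1, 3.69 and 4.05 TPM in Myc+E2f/Dp glands, and Yki*+Dp exceeded them by 1.60 and 1.92 on the log2 scale. Tgi, a co-repressor that competes with Yki for Scalloped, was at 6.64, 11 and 9.49 TPM in Yki*+Dp glands, against 2.46, 3.25 and 2.55 TPM in control glands (log2 fold change 1.10 ± 0.12), a call lost without Yki*+Dp replicate 2 (0.98). The upstream regulator kibra, at 9.33, 11.9 and 10.8 TPM in Yki*+Dp glands, against 3.52, 5.71 and 4.39 TPM in control glands (log2 fold change 0.77, adjusted p = 0.000103), and wts, which encodes the Warts kinase (0.81, adjusted p = 2.60e-05), stayed under the fold threshold against control. Against YkiWT, kibra was called higher (log2 fold change 1.06 ± 0.10, adjusted p = 4.12e-05). The kinase hpo (0.15) and the DNA-binding partner sd (-0.06) had log2 fold changes near 0.

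Genes used elsewhere as Yki targets were called higher in 4 of 17 tested (Mmp1, upd3, ex and crb), or 23.53% beside 5.52% of all genes. None was called lower, and the median was 0.37. At an adjusted p under 0.05 (limma) 10 had a positive and 1 a negative fold. The caspase inhibitor Diap1 was at 85.2, 114 and 83 TPM in Yki*+Dp glands, against 30.4, 40.1 and 37.9 TPM in control glands, with no overlap between the groups, at a log2 fold change of 0.97 (adjusted p = 4.88e-05) just under the threshold. The growth regulators CycE and Myc were not called. CycE, the G1/S cyclin, was at 0.837, 0.583 and 0.919 TPM in Yki*+Dp glands, against 1.01, 1.32 and 0.915 TPM in control glands (log2 fold change -0.42 ± 0.10). Myc was at 20.8, 22.6 and 22.2 TPM in Yki*+Dp glands, against 15.2, 21.7 and 20.7 TPM in control glands (log2 fold change -0.17 ± 0.18). The wing-disc targets fj and wg were under the level needed for a test, with every library of both groups at or below 0.348 TPM.

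Of the 23 lists plotted by gene, that of the pleated septate junction had the largest share called higher. Of 32 tested genes of the pleated septate junction, 18 were called higher and none lower, against 5.52% of all genes, and 25 had a positive log2 fold change at an adjusted p under 0.05. The median of the list was 1.15, and the called members lay between 1.01 and 1.74, a narrow range. Coiled (cold), a Ly6 protein needed to assemble the junction, was at 54.5, 74.5 and 55.7 TPM in Yki*+Dp glands, against 11.2, 15.1 and 14.2 TPM in control glands (log2 fold change 1.74 ± 0.14, adjusted p = 5.12e-06). Its relatives crim (1.72) and crok (1.53) rose alike. The adhesion protein gene Lac was at 77.1, 111.1 and 87.9 TPM in Yki*+Dp glands, against 17.6, 24.3 and 19.8 TPM in control glands (log2 fold change 1.73 ± 0.13). The claudin-like genes sinu, pck and kune had log2 fold changes of 1.45, 1.33 and 1.24. The core adhesion complex rose with them: Nrx-IV was at 24.6, 37.6 and 32.4 TPM in Yki*+Dp glands, against 6.76, 9.14 and 7.45 TPM in control glands (log2 fold change 1.53 ± 0.16, adjusted p = 2.67e-05), Cont at a log2 fold change of 1.21 and Nrg at 1.12. Of the cytoplasmic and associated members, cora (coracle, a FERM domain protein) was at 36.7, 51.4 and 46.6 TPM in Yki*+Dp glands, against 13.1, 16.9 and 13.9 TPM in control glands (log2 fold change 1.18 ± 0.15), and vari (1.01), Mcr (1.27), Tsf2 (1.35), Fas3 (1.35) and nrv2, a Na,K-ATPase subunit gene (1.67), were also called.

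The members of the junction list that were not called included the tricellular junction genes bark (0.86, adjusted p = 0.00155) and Gli (0.59, adjusted p = 0.0008), and the basolateral scaffolds scrib (0.46) and dlg1 (0.03). Outside the list, and chosen after their values were seen, the Pasiflora genes pasi1 and pasi2, which also build septate junctions, were called with log2 fold changes of 1.61 and 1.34. The receptor gene moody, needed for septate junctions of the blood-brain barrier, was at 23.7, 38.2 and 28.7 TPM in Yki*+Dp glands, against 3.08, 4.85 and 4.15 TPM in control glands (log2 fold change 2.30 ± 0.20, adjusted p = 8.97e-06). The lipid phosphatase genes wun and wun2 were written into the same list for their part in tracheal septate junctions. The wun gene was at 81.4, 103 and 64.4 TPM in Yki*+Dp glands, against 17.8, 21.2 and 20.4 TPM in control glands (log2 fold change 1.62 ± 0.14, adjusted p = 7.31e-06), and YkiWT glands, at 10.6, 10.2 and 10.3 TPM, lay below both.

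Smooth septate junctions are the variant of gut and Malpighian tubule epithelia, and 2 of the 4 tested members of their set were called here. Snakeskin (Ssk), a small membrane protein of that junction (3L:20188522-20189779, plus strand), was at 164, 238 and 170.5 TPM in Yki*+Dp glands, against 7.95, 10 and 7.28 TPM in control glands (log2 fold change 3.99 ± 0.27, adjusted p = 1.93e-06), a larger rise than any gene of the pleated type. YkiWT glands held 23.7, 29.6 and 47.1 TPM and Myc+E2f/Dp glands 15.2, 15.7 and 34.2 TPM of Ssk, so Yki*+Dp libraries were above both ranges. Its tetraspanin partner Tsp2A was at 2.62, 3.16 and 1.8 TPM in Yki*+Dp glands, against 0.164, 0.247 and 0.198 TPM in control glands (log2 fold change 1.43 ± 0.25). The remaining partners stayed low and overlapped between the groups: mesh was at 0.975, 1.55 and 3.12 TPM in Yki*+Dp glands, against 0.478, 1.1 and 0.358 TPM in control glands (log2 fold change 0.61 ± 0.46). The fourth, hoka, was at 1.1, 2.65 and 2.6 TPM in Yki*+Dp glands, against 1.08, 1.77 and 1.31 TPM in control glands (log2 fold change 0.12 ± 0.31).

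**Figure D2:**
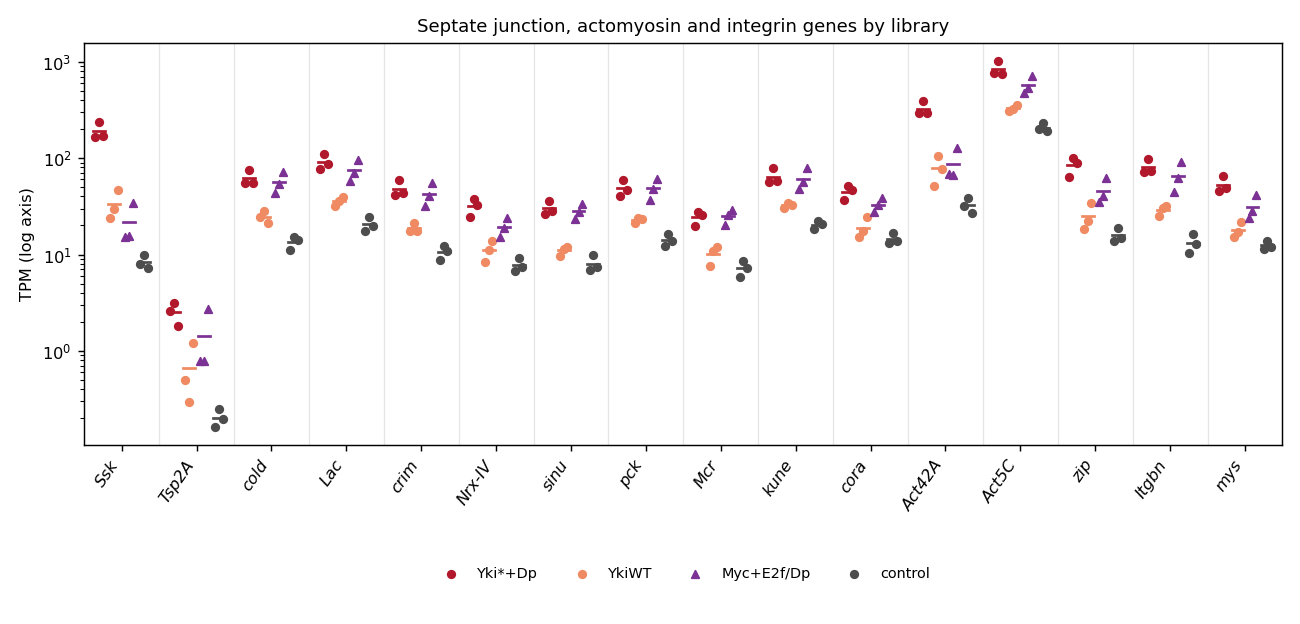
TPM of 16 septate junction, actin, myosin and integrin genes on a log axis, with 1 point per library and a bar at the mean of the 3 libraries of each group (Yki*+Dp, YkiWT, Myc+E2f/Dp and control, from left to right within a gene). All 3 Yki*+Dp libraries are above all 3 control libraries in every gene shown, which follows from drawing genes called higher alone. List members that were not called are not drawn. Among those shown, Ssk and Act42A set Yki*+Dp apart from the other genotypes most clearly.

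Polarity and adhesion genes rose more selectively. Beside 5.52% of all genes, 15.38% of the apical, 11.11% of the basolateral and 21.43% of the adherens junction genes tested were called higher. Of 13 apical polarity genes 2 were called, although 10 had a positive log2 fold change at an adjusted p under 0.05 (median 0.62). Atypical protein kinase C (aPKC) was at 11.9, 14.2 and 11 TPM in Yki*+Dp glands, against 2.7, 3.4 and 2.69 TPM in control glands (log2 fold change 1.46 ± 0.17, adjusted p = 6.11e-05). The apical determinant crumbs (crb) was at 9.45, 12.2 and 11.7 TPM in Yki*+Dp glands, against 2.6, 3.63 and 2.71 TPM in control glands (log2 fold change 1.30 ± 0.11). The partners baz (0.62), par-6 (0.45) and sdt (0.24) stayed under the threshold. Among 9 basolateral genes only cora was called, and l(2)gl had a log2 fold change of 0.79. Among 14 adherens junction genes Vinc, p120ctn and Fas3 were called. Vinculin (Vinc), which couples junctions under tension to actin, was at 21.1, 27.1 and 21.2 TPM in Yki*+Dp glands, against 4.46, 5.76 and 4.95 TPM in control glands (log2 fold change 1.66 ± 0.14). E-cadherin (shg) was at 2.56, 3.83 and 3.1 TPM in Yki*+Dp glands, against 0.959, 1.27 and 1.13 TPM in control glands (log2 fold change 0.74 ± 0.14). Beta-catenin (arm) was at 57.6, 77.9 and 66.9 TPM in Yki*+Dp glands, against 26.9, 34.7 and 28.9 TPM in control glands (log2 fold change 0.76 ± 0.08). Neither overlapped between the groups and neither passed the threshold.

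Of 15 tested integrin adhesion genes 6 were called higher (40%, beside 5.52% of all genes) and none lower, at a median of 0.46. The beta subunit mys was at 45.2, 64.9 and 49.3 TPM in Yki*+Dp glands, against 11.5, 13.8 and 11.9 TPM in control glands (log2 fold change 1.64 ± 0.15, adjusted p = 1.49e-05), the alpha subunit scb at a log2 fold change of 1.56, and the other beta subunit, Itgbn, at 2.17. The intracellular linkers talin (rhea, 1.46), PINCH (stck, 1.74) and paxillin (Pax, 1.37) rose with them, whereas the muscle-associated alpha subunit if was at 2.44, 3.34 and 2.84 TPM in Yki*+Dp glands, against 1.96, 2.69 and 2.63 TPM in control glands (log2 fold change -0.10 ± 0.10). In the basement membrane trol, the perlecan gene, was the member called of 13 tested (7.69%, beside 5.52% of all genes called higher). Its level was 28.8, 46.1 and 33.8 TPM in Yki*+Dp glands, against 10, 8.41 and 12.4 TPM in control glands (log2 fold change 1.35 ± 0.17). Of 5 tested matrix protease genes and inhibitors, Mmp1 (2.06) and its inhibitor Timp were called. Timp was at 89.2, 90.3 and 73.5 TPM in Yki*+Dp glands, against 16.9, 20.8 and 16.4 TPM in control glands (log2 fold change 1.80 ± 0.25, adjusted p = 0.000201). Tiggrin (Tig), an integrin ligand outside these lists that was chosen after its values were seen, was at 6.23, 16.4 and 8.71 TPM in Yki*+Dp glands, against 0.096, 0.103 and 0.073 TPM in control glands (log2 fold change 3.20 ± 0.40).

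Actin and its regulators were another broad group. Of 45 tested cytoskeleton genes 15 were called higher (33.33%, beside 5.52% of all genes) and none lower, and the median was 0.72. The cytoplasmic actin gene Act42A (2R:6013910-6015689, minus strand) was at 292, 394 and 293 TPM in Yki*+Dp glands, against 32, 38.8 and 26.6 TPM in control glands (log2 fold change 2.92 ± 0.24, adjusted p = 6.42e-06). The other cytoplasmic actin gene, Act5C, was the more abundant, at 769, 1017 and 752 TPM in Yki*+Dp glands, against 199, 234 and 189 TPM in control glands (log2 fold change 1.63 ± 0.12). The actin genes share most of their coding sequence, so the assignment of reads between them is uncertain. Non-muscle myosin rose in both chains. The heavy chain zip was at 64.1, 99.5 and 88.1 TPM in Yki*+Dp glands, against 14, 19 and 14.9 TPM in control glands (log2 fold change 1.95 ± 0.21, adjusted p = 3.85e-05), and the regulatory light chain sqh at a log2 fold change of 1.18. Turnover factors rose too, with cofilin (tsr) at 763, 972 and 717 TPM in Yki*+Dp glands, against 194, 223 and 187 TPM in control glands (log2 fold change 1.62 ± 0.15). Fimbrin (Fim) was at a log2 fold change of 2.07 and the Arp2/3 subunits Arpc1 and Arp3 at 1.89 and 1.10. Among the microtubule genes the isotype βTub60D had the largest change of the list. It was at 21.2, 30.2 and 29.7 TPM in Yki*+Dp glands, against 1.7, 2.85 and 1.43 TPM in control glands (log2 fold change 2.96 ± 0.39).

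Several actin-binding genes outside the list, chosen after their values were seen, were called higher as well. Ciboulot (cib), which promotes actin assembly, was at 312, 439 and 338 TPM in Yki*+Dp glands, against 33.3, 46.4 and 29.8 TPM in control glands (log2 fold change 2.91 ± 0.23, adjusted p = 5.51e-06). The unconventional myosin Myo31DF was at 30.1, 43.7 and 33.5 TPM in Yki*+Dp glands, against 1.46, 2 and 1.05 TPM in control glands (log2 fold change 3.62 ± 0.28). The alternative Arp2/3 subunit Arpc3B was at 20.6, 27 and 13.5 TPM in Yki*+Dp glands, against 0.83, 0.734 and 0.644 TPM in control glands (log2 fold change 3.36 ± 0.24) and Cortactin at a log2 fold change of 1.85. The septin genes pnut (2.11) and Septin4 (1.49) rose as well. Septin4 was lower in Myc+E2f/Dp glands, at 5.56, 5.45 and 6.62 TPM, than the 7.74, 11.4 and 8.48 TPM of control glands.

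The muscle sheath is the other actin-rich tissue of the gland. None of its 15 tested marker genes was called, their median log2 fold change was 0.13 and 5 had a positive fold at an adjusted p under 0.05 (6 unadjusted). Their summed level as deposited was 1054 to 1200 TPM in Yki*+Dp libraries and 595 to 745 TPM in control libraries. After scaling, the sums were 1018 to 1114 in Yki*+Dp and 803 to 943 in control libraries. Muscle myosin heavy chain (Mhc) was at 15.2, 16.4 and 17.5 TPM in Yki*+Dp glands, against 11.5, 13 and 15.2 TPM in control glands (log2 fold change -0.07 ± 0.11), so the myosin that rose was the non-muscle form. Tm1, which also has non-muscle transcripts, was at 190.5, 222 and 193 TPM in Yki*+Dp glands, against 81.5, 100.4 and 87.2 TPM in control glands (log2 fold change 0.78 ± 0.08).

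Tetraspanins, membrane proteins that organise membrane domains, were called higher in 8 of 20 tested genes (40%, beside 5.52% of all genes) and lower in none (median 0.66). Tsp42Ed was at 456, 659 and 467 TPM in Yki*+Dp glands, against 50.4, 57.6 and 48.8 TPM in control glands (log2 fold change 2.91 ± 0.21) and Tsp42Ee at a log2 fold change of 1.36. Of the 8 called, 7 lie in the Tsp42E gene cluster on chromosome 2R and the other is Tsp2A.

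**Figure D3:**
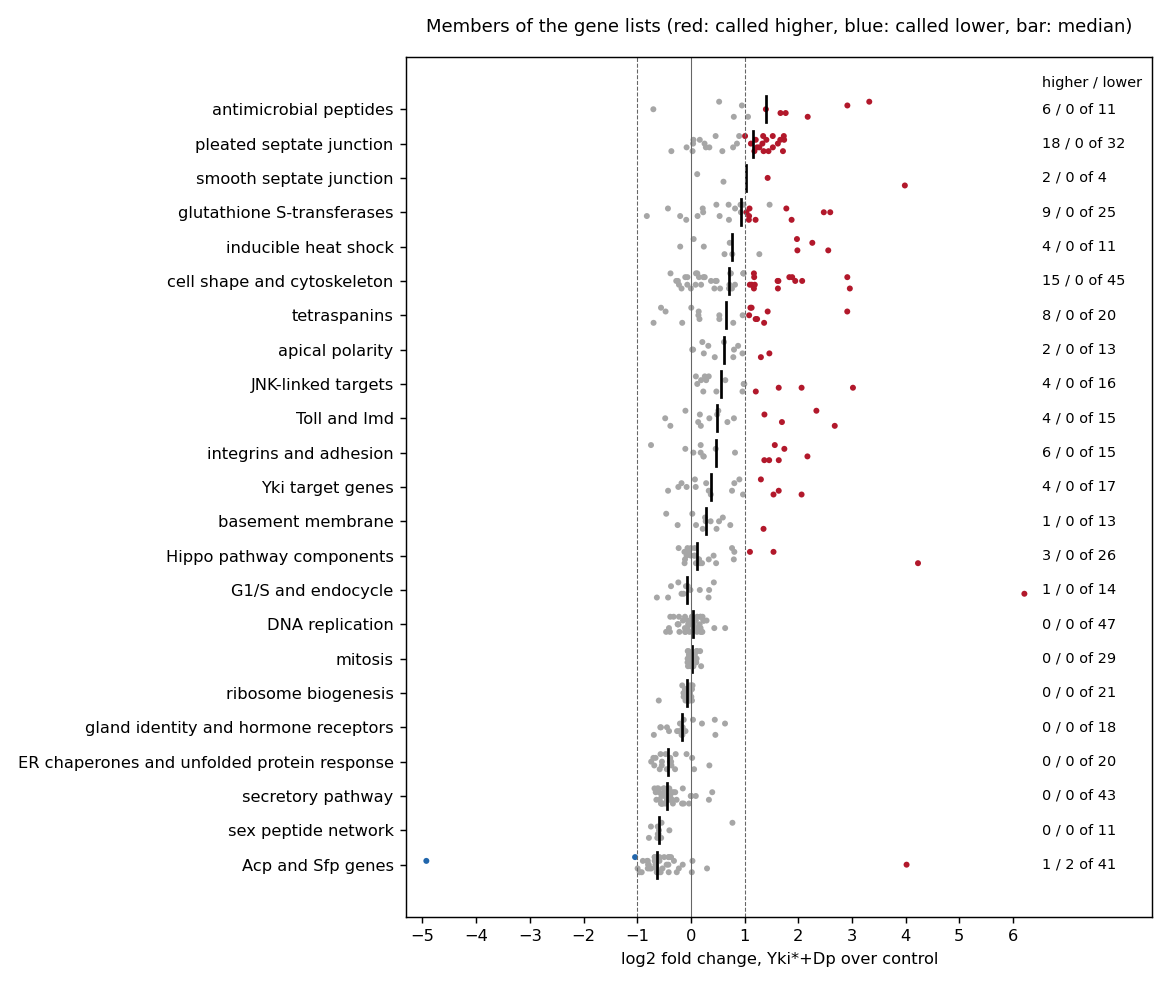
Log2 fold change of Yki*+Dp over control for each tested member of 23 gene lists, 1 point per gene, with a black bar at the median of the list and the number called higher and lower at the right. The medians of the septate junction, cytoskeleton, glutathione S-transferase and antimicrobial peptide lists lie to the right of 0, those of the cell cycle lists near 0 and those of the seminal fluid and secretory lists to the left, with few genes past a log2 fold change of -1.

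Of 20 JNK pathway and AP-1 genes, Ilp8 was called higher and Traf4 lower, beside 5.52% and 1.46% of all genes, so the count called higher is near the background. With no condition on the fold, 9 of the 20 had a positive and 1 a negative fold at an adjusted p under 0.05 (limma). Over all 8128 tested genes these counts were 1686 and 1481. The median was 0.20. Jun (Jra) was at 22.9, 27.8 and 21.2 TPM in Yki*+Dp glands, against 8.44, 9.5 and 8.4 TPM in control glands (log2 fold change 0.99 ± 0.10), Fos (kay) at a log2 fold change of 0.64 and the JNK phosphatase gene puc at 0.96, none past the threshold. With a pseudocount of 0.5 or 0.1 Jra and puc were called higher. Leaving out 1 library gave 1 to 4 genes called higher in the list, and without Yki*+Dp replicate 2 Ilp8 itself was not called (log2 fold change 0.88). Ilp8, a relaxin-like hormone released by damaged tissue, was at 11.6, 24.1 and 10.5 TPM in Yki*+Dp glands, against 3.87, 5.52 and 3.75 TPM in control glands (log2 fold change 1.21 ± 0.24, adjusted p = 0.00209). Traf4, an adaptor upstream of JNK, was at 1, 1.53 and 1.28 TPM in Yki*+Dp glands, against 2.58, 4.06 and 3.86 TPM in control glands (log2 fold change -1.26 ± 0.16). Of 16 genes linked to JNK activity 4 were called higher (25%, beside 5.52% of all genes) and none lower, led by scarface (scaf), a secreted protease homologue. Its level was 11.3, 20.6 and 15.3 TPM in Yki*+Dp glands, against 0.393, 1.8 and 0.424 TPM in control glands (log2 fold change 3.02 ± 0.35, adjusted p = 5.61e-05).

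The p38 kinases are a parallel stress branch, and 2 neighbouring genes of that family rose, noticed after their values were seen. The kinase gene p38a was at 21.4, 36 and 20.1 TPM in Yki*+Dp glands, against 2.43, 3.01 and 2.8 TPM in control glands (log2 fold change 2.49 ± 0.20, adjusted p = 5.12e-06). The gene p38c, which lies directly beside it on chromosome 3R, was at 4.19, 5.76 and 3.38 TPM in Yki*+Dp glands, against 0.043, 0.096 and 0.058 TPM in control glands (log2 fold change 2.26 ± 0.17). The unlinked p38b was at 11.4, 12.2 and 12.3 TPM in Yki*+Dp glands, against 8.78, 10.6 and 9.07 TPM in control glands (log2 fold change -0.04 ± 0.06). Both p38a and p38c were also called higher against YkiWT, with log2 fold changes of 2.02 and 1.95, and against Myc+E2f/Dp, with 2.14 and 1.56.

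Other signalling lists held few called genes, and beside the 5.52% of all genes called higher the EGFR, Wnt and Hedgehog counts are no more than the background. The shares of the JAK/STAT list (15.38%) and of the insulin and TOR list (16.67%) were above it, from 2 and 3 called genes. With no condition on the fold, 8 EGFR pathway genes had a positive and 1 a negative fold at an adjusted p under 0.05 (limma). In the Wnt and Hedgehog list these counts were 5 and 2. In the JAK/STAT list of 13 genes the cytokine upd3 and the regulator apt were called. The level of apt was 5.19, 6.73 and 5.75 TPM in Yki*+Dp glands, against 0.915, 1.56 and 1.06 TPM in control glands (log2 fold change 1.44 ± 0.12). The feedback gene Socs36E was at 2.53, 3.22 and 3 TPM in Yki*+Dp glands, against 1.31, 1.93 and 1.62 TPM in control glands (log2 fold change 0.33 ± 0.19). Of 19 EGFR pathway genes the ligand spi was called, at 21, 31.7 and 21.7 TPM in Yki*+Dp glands, against 4.46, 7.05 and 7.35 TPM in control glands (log2 fold change 1.49 ± 0.21). Of 24 Wnt and Hedgehog list genes the Dpp feedback inhibitor Dad was called. It was at 5.65, 7.21 and 6.76 TPM in Yki*+Dp glands, against 2.01, 2.17 and 1.94 TPM in control glands (log2 fold change 1.03 ± 0.10), a call lost with scaling by the 75th percentile and without Yki*+Dp replicate 2. Of 18 insulin and TOR genes 3 were called, Ilp8 among them. The insulin-binding protein gene ImpL2 was at 2.5, 3.64 and 3.94 TPM in Yki*+Dp glands, against 0.416, 0.353 and 0.174 TPM in control glands (log2 fold change 1.58 ± 0.33). The translation repressor gene Thor (4E-BP) was at 298, 638 and 304 TPM in Yki*+Dp glands, against 104, 134 and 167 TPM in control glands (log2 fold change 1.16 ± 0.39, adjusted p = 0.0384). Its call was lost with no filter on low TPM and without Yki*+Dp replicate 2 (0.82), control replicate 1 (1.03) or control replicate 2 (1.09). Notch pathway genes (9 tested) and PDGF/VEGF genes (4 tested) had none called, with medians of 0.20 and 0.34, and with 5 and 3 positive folds and 1 and 0 negative folds at an unadjusted p under 0.05 (limma).

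Innate immune genes rose at the level of recognition and of effectors. Of 15 tested Toll and Imd genes 4 were called higher (26.67%, beside 5.52% of all genes) and none lower (median 0.49). PGRP-LB, an amidase that breaks down peptidoglycan and damps the Imd pathway, was at 30.1, 33.3 and 23.9 TPM in Yki*+Dp glands, against 2.54, 2.71 and 3.05 TPM in control glands (log2 fold change 2.68 ± 0.26, adjusted p = 1.80e-05). PGRP-SA, the receptor upstream of Toll, was at 10.1, 12.3 and 8.77 TPM in Yki*+Dp glands, against 0.963, 1.15 and 0.671 TPM in control glands (log2 fold change 2.34 ± 0.23). The NF-kappaB factor gene dorsal (dl) was at 7.64, 9.11 and 7.88 TPM in Yki*+Dp glands, against 1.24, 1.41 and 1.5 TPM in control glands (log2 fold change 1.70 ± 0.13). The paralogue Dif was at 7.34, 9.35 and 8.78 TPM in Yki*+Dp glands, against 7.39, 10.3 and 10.6 TPM in control glands (log2 fold change -0.48 ± 0.10), not past the threshold. Relish (Rel), the factor of the Imd pathway, was at 18.5, 23.5 and 16.6 TPM in Yki*+Dp glands, against 8.99, 11 and 11.1 TPM in control glands (log2 fold change 0.49 ± 0.15), also not past it. Serpins that restrain these cascades rose as well, nec at a log2 fold change of 1.37. Spn27A, a serpin of the Toll and melanization cascades, was at 16.3, 30.2 and 16.7 TPM in Yki*+Dp glands, against 1.1, 1.35 and 1.13 TPM in control glands (log2 fold change 3.03 ± 0.24). The protease genes MP1 (2.73), of the melanization cascade, and modSP (2.04), of the Toll cascade, and the receptor genes PGRP-LC (1.14) and PGRP-LF (1.83) lay outside the list or were noticed after their values were seen.

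Among antimicrobial peptides 6 of 11 tested genes were called higher (54.55%, beside 5.52% of all genes) and none lower, with a median of 1.40. Their levels, however, differed widely among Yki*+Dp libraries. Metchnikowin (Mtk) was at 26.7, 2.25 and 13.4 TPM in Yki*+Dp glands, against 0.118, 0 and 0 TPM in control glands (log2 fold change 3.32 ± 0.67, adjusted p = 0.0023). Diptericin B (DptB) was at 35, 2.59 and 3.51 TPM in Yki*+Dp glands, against 0.109, 0.03 and 0.026 TPM in control glands (log2 fold change 2.92 ± 0.75, adjusted p = 0.0101). Drosomycin (Drs) was at 2.52, 5.01 and 18.9 TPM in Yki*+Dp glands, against 0.428, 0.708 and 0.337 TPM in control glands (log2 fold change 2.18 ± 0.51, adjusted p = 0.00607). The highest Yki*+Dp library was replicate 1 for Mtk and DptB and replicate 3 for Drs, so no single library led all of them. Without Yki*+Dp replicate 1 the log2 fold change was 2.63 for Mtk, 1.85 for DptB and 1.06 for Dro, and without replicate 3 it was 1.48 for Drs, each still called. Of the Bomanins, short secreted Toll effectors, BomS2 was at 7.29, 10.4 and 4.47 TPM in Yki*+Dp glands, against 0.694, 1.09 and 1.34 TPM in control glands (log2 fold change 1.77 ± 0.30). BomS3 was the member whose groups lay closest, at 13.1, 11.8 and 4.03 TPM in Yki*+Dp glands, against 1.35, 1.84 and 3.21 TPM in control glands (log2 fold change 1.40 ± 0.48, adjusted p = 0.0397), and it was the called gene of the whole table that overlapped between the groups on the scaled values. Its call was lost with a pseudocount of 0.1, with no filter on low TPM and without Yki*+Dp replicate 1 (1.11) or 2 (1.22) or control replicate 1 (1.24) or 2 (1.30). With a filter at 5 TPM, 2 of the peptides were called. Diedel, a secreted immune modulator, was at 41.9, 95.2 and 48.6 TPM in Yki*+Dp glands, against 3.6, 4 and 3.94 TPM in control glands (log2 fold change 3.28 ± 0.36, adjusted p = 4.01e-05). It was at 17.9, 12.4 and 35 TPM in YkiWT glands and 3.73, 2.84 and 1.96 TPM in Myc+E2f/Dp glands.

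**Figure D4:**
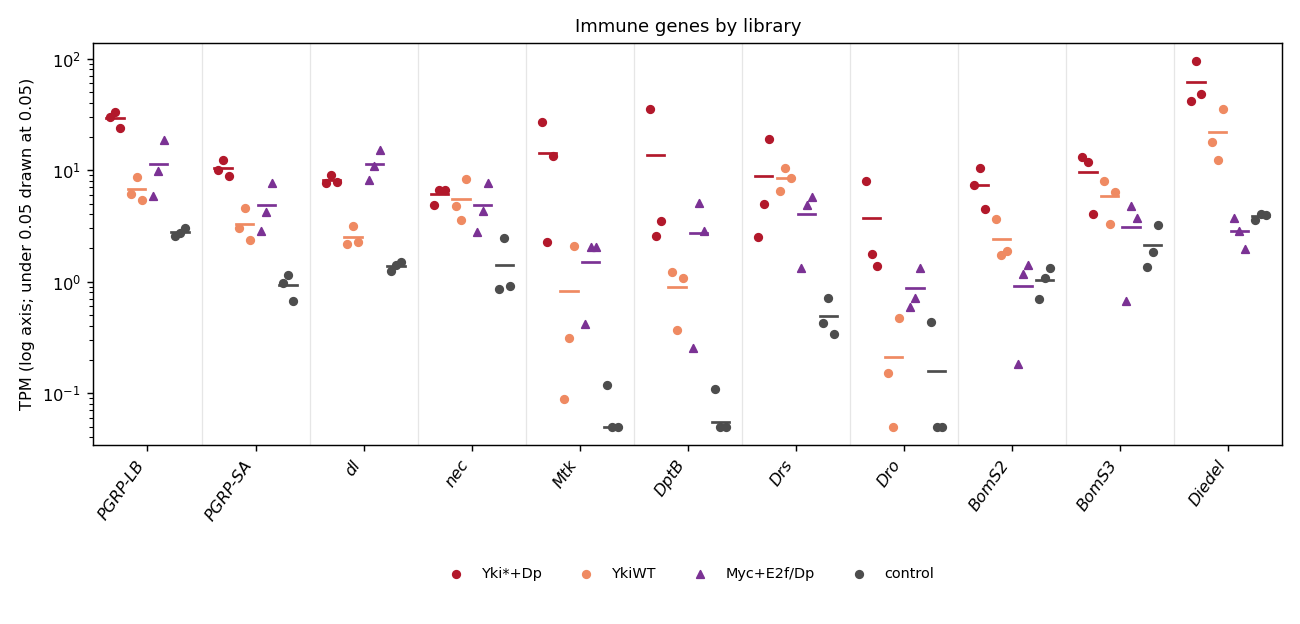
TPM of 11 immune genes on a log axis, with 1 point per library and a bar at the group mean (Yki*+Dp, YkiWT, Myc+E2f/Dp and control, from left to right). The Yki*+Dp libraries are close together for PGRP-LB (23.9 to 33.3 TPM) and far apart for Mtk (2.25 to 26.7 TPM), where 2 of the 3 control libraries are listed at 0.

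Markers of blood cells and fat body, which also express immune genes, were at low levels, and the hemocyte sum was higher in Yki*+Dp libraries. Of 6 tested hemocyte markers the scavenger receptor gene crq was called, at 14.1, 18.5 and 17 TPM in Yki*+Dp glands, against 4.61, 6.2 and 4.32 TPM in control glands (log2 fold change 1.21 ± 0.14, adjusted p = 4.83e-05). The defining marker Hml was at 1.96, 1.28 and 2.07 TPM in Yki*+Dp glands, against 0.711, 1.26 and 0.646 TPM in control glands (log2 fold change 0.38 ± 0.15). The receptor gene NimC1 was at 1.51, 1.03 and 1.25 TPM in Yki*+Dp glands, against 0.503, 0.642 and 0.374 TPM in control glands (log2 fold change 0.44 ± 0.12). The summed hemocyte markers were 44.2 to 56.8 TPM in Yki*+Dp libraries and 21 to 30 TPM in control libraries, or 42.16 to 56.12 and 28.52 to 37.91 after scaling. Of 10 fat body markers 1 reached the level for a test, Lsd-1, a lipid droplet perilipin, at 6.94, 8.68 and 6.5 TPM in Yki*+Dp glands, against 0.904, 1.16 and 1.22 TPM in control glands (log2 fold change 1.76 ± 0.11, adjusted p = 1.32e-06). The part of hemocytes and fat body in the immune values was not tested.

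Detoxification and heat-shock genes rose in part of each family. Beside 5.52% of all genes, 36% of the glutathione S-transferase, 18.6% of the cytochrome P450 and 36.36% of the heat-shock genes tested were called higher. Of the P450 genes 4.65% were called lower, beside 1.46% of all genes. Of 25 tested glutathione S-transferase genes 9 were called higher and none lower (median 0.93), among them GstE9, GstE3 and GstE1. GstE9 was at 17.4, 24.6 and 16.4 TPM in Yki*+Dp glands, against 1.49, 1.86 and 1.95 TPM in control glands (log2 fold change 2.60 ± 0.29, adjusted p = 4.87e-05), with log2 fold changes of 2.48 for GstE3 and 1.78 for GstE1. Against YkiWT 1 of the 25 was called higher (GstE3), with GstE9 at 8.57, 15.2 and 11.1 TPM in YkiWT glands. Of 43 cytochrome P450 genes 8 were called higher and 2 lower, led by Cyp6a22. Its level was 26.5, 36.7 and 23 TPM in Yki*+Dp glands, against 2.12, 3.87 and 3.6 TPM in control glands (log2 fold change 2.52 ± 0.18). Of 11 inducible heat-shock genes 4 were called higher and none lower. Hsp70Bb was at 305, 379 and 370.1 TPM in Yki*+Dp glands, against 36.5, 67.4 and 36.2 TPM in control glands (log2 fold change 2.56 ± 0.26, adjusted p = 2.36e-05), and the split of reads between it and near-identical copies is uncertain. The copies Hsp70Aa, Hsp70Ba and Hsp70Bbb were at or below 1.06 TPM in all 6 libraries. The small heat-shock genes Hsp22 (2.26), Hsp27 (1.99) and Hsp23 (1.98) were called too, with Hsp23 at 6.65, 2.41 and 19.3 TPM in Yki*+Dp glands, against 0.865, 0.282 and 1.35 TPM in control glands. Without Yki*+Dp replicate 3 the log2 fold change of Hsp23 was 1.32, and without replicate 2 it was 2.61. The call of Hsp23 was lost without control replicate 2 (1.69), and that of Hsp27 without Yki*+Dp replicate 1 or 3 or control replicate 2 or 3 (1.87 to 1.91). All males of all groups had received the same heat shock.

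Metabolic genes showed a few strong, isolated changes. Asparagine synthetase (AsnS) was at 28.1, 36.4 and 26.8 TPM in Yki*+Dp glands, against 3.98, 4.95 and 4.64 TPM in control glands (log2 fold change 2.17 ± 0.14, adjusted p = 1.72e-06). YkiWT glands held 3.79, 4.97 and 3.31 TPM and Myc+E2f/Dp glands 4.68, 4.33 and 3.57 TPM, so Yki*+Dp was the single genotype with every library above the control range. Glucose-6-phosphate dehydrogenase (Zw) was at 10.3, 11.8 and 11.5 TPM in Yki*+Dp glands, against 2.4, 2.62 and 2.01 TPM in control glands (log2 fold change 1.58 ± 0.11). The lipocalin gene NLaz was at 354, 515 and 351 TPM in Yki*+Dp glands, against 58.4, 68.6 and 50.5 TPM in control glands (log2 fold change 2.37 ± 0.26). Arc1, which encodes a capsid-forming protein, was at 610.1, 769.7 and 589 TPM in Yki*+Dp glands, against 96.9, 149 and 74 TPM in control glands (log2 fold change 2.28 ± 0.26). Of 13 glycolysis genes Ldh (1.32) and Hex-C (1.03) were called, or 15.38% beside 5.52% of all genes, and Pfk was at -0.13. AsnS, Zw, NLaz and Arc1 were chosen after their values were seen.

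Juvenile hormone, which acts on the adult gland, is broken down by Jhe, the juvenile hormone esterase gene. Jhe was at 17.6, 15.8 and 16.3 TPM in Yki*+Dp glands, against 1.36, 0.96 and 0.994 TPM in control glands (log2 fold change 2.83 ± 0.19, adjusted p = 2.10e-06). YkiWT glands held 1.25, 3.03 and 2.86 TPM and Myc+E2f/Dp glands 0.489, 0.433 and 0.466 TPM of Jhe. It was the single member called of 10 tested genes of hormone breakdown and response, and the receptor gene Met was at 1.5, 1.61 and 1.87 TPM in Yki*+Dp glands, against 1.4, 1.73 and 1.39 TPM in control glands (log2 fold change -0.15 ± 0.08).

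Few cell cycle genes were called. None of 47 DNA replication genes was called in either direction at a median of 0.05, where an adjusted p under 0.05 was reached by 3 with a positive and 9 with a negative fold, and an unadjusted p under 0.05 by 7 and 9. PolE4, a DNA polymerase epsilon subunit gene outside this list, was called lower and is described below. None of 29 mitosis genes was called or reached a p under 0.05, even unadjusted (limma, median 0.03). Of 14 G1/S and endocycle genes only the Dp transgene was called. The genes Mcm7, tefu, RnrL, RecQ4 and PolA1 were singled out in the study on these same libraries, so they are not independent evidence. All 5 lay above every control library, 3 reached an adjusted p under 0.05 and 1, tefu, was called. RnrL, the large subunit of ribonucleotide reductase, was at 1.41, 1.66 and 1.76 TPM in Yki*+Dp glands, against 0.434, 0.573 and 0.51 TPM in control glands (log2 fold change 0.64 ± 0.08, adjusted p = 9.96e-05). With a pseudocount of 0.1 RnrL was called higher. PCNA, the replication clamp, was at 0.707, 0.743 and 0.644 TPM in Yki*+Dp glands, against 0.271, 0.064 and 0.215 TPM in control glands (log2 fold change 0.44 ± 0.25), and Myc+E2f/Dp glands held 89.8, 107 and 119 TPM. The mitotic kinase Cdk1 was at 0.157, 0.069 and 0.18 TPM in Yki*+Dp glands, against 0.149, 0.016 and 0.072 TPM in control glands (log2 fold change 0.04 ± 0.32). PCNA and Cdk1 were under 1 TPM in every library of both groups, a level where log2(scaled TPM + 1) understates changes. A gene was tested where any 3 of the 12 libraries reached 1 TPM. Replication and mitosis members near 0 in both groups could thus enter through the Myc+E2f/Dp libraries. For such members a fold near 0 is largely set by the added 1, so their lack of calls shows little. Of 21 ribosome biogenesis genes none was called, with 2 at an unadjusted p under 0.05 and a median of -0.07, against 0.30 on TPM as deposited.

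Of 23 DNA damage and repair genes 1 was called higher and 1 lower, near the 5.52% and 1.46% of all genes. The ATM kinase gene tefu was at 13.4, 15.4 and 12.1 TPM in Yki*+Dp glands, against 2.2, 2.8 and 2.68 TPM in control glands (log2 fold change 1.74 ± 0.08, adjusted p = 1.34e-07), and it was also called higher against YkiWT (1.62) and Myc+E2f/Dp (1.56). The gene of its partner in break sensing, mre11, was at 1.49, 3.11 and 2.33 TPM in Yki*+Dp glands, against 5.17, 7.14 and 7.82 TPM in control glands (log2 fold change -1.56 ± 0.16, adjusted p = 2.32e-05). YkiWT glands held 2.46, 2.4 and 2.62 TPM of mre11. Of 16 cell death genes the caspase gene Strica was the member called (6.25%, near the 5.52% of all genes called higher). Strica was at 4.97, 6.35 and 5.51 TPM in Yki*+Dp glands, against 0.5, 0.666 and 0.48 TPM in control glands (log2 fold change 1.92 ± 0.18), and all lines carried the caspase inhibitor P35.

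Of the 15 largest falls, CG34038 and CG43061 were near 0 in every genotype but control. CG34038 (2R:25167659-25169855, plus strand) was at 0.254, 0.181 and 0.296 TPM in Yki*+Dp glands, against 32.6, 37.8 and 33.9 TPM in control glands (log2 fold change -5.17 ± 0.08, adjusted p = 1.43e-11). It was at 0.436, 0.383 and 0.404 TPM in YkiWT and 0.385, 0.322 and 0.794 TPM in Myc+E2f/Dp glands. CG43061 was at 0.1, 0.072 and 0 TPM in Yki*+Dp glands, against 10.3, 18.5 and 16.1 TPM in control glands (log2 fold change -4.18 ± 0.17). It was at 0.269, 0.563 and 0.078 TPM in YkiWT and 0, 0 and 0.203 TPM in Myc+E2f/Dp glands. For these genes, oncogene expression and the separate origin of the control stock cannot be told apart, and neither was called in the direct comparison with YkiWT.

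Several other falls were also called in the direct comparison with YkiWT. Acp54A1, an accessory gland peptide gene, was at 5.34, 1.11 and 3.19 TPM in Yki*+Dp glands, against 54.2, 94.5 and 141 TPM in control glands (log2 fold change -4.93 ± 0.48, adjusted p = 1.86e-05), with 71.5, 189 and 74.7 TPM in YkiWT glands. Spn75F, a seminal fluid serpin, was at 22.9, 19.2 and 167.8 TPM in Yki*+Dp glands, against 615, 734 and 617 TPM in control glands (log2 fold change -4.30 ± 0.60, adjusted p = 0.000217), with 559.9, 546 and 515 TPM in YkiWT glands. Its Yki*+Dp replicate 3 was far above the other replicates but still below every control library, and without it the log2 fold change was -5.27. Spn75F lies within the span of CG14082 on the same strand, which also fell (-1.34), so reads of the pair may be shared. Cyp4e1 was at 0.152, 0.116 and 5.72 TPM in Yki*+Dp glands, against 16.6, 21 and 16.6 TPM in control glands (log2 fold change -3.54 ± 0.57), with the same replicate highest and a log2 fold change of -4.37 without it, and its neighbour Cyp4e2 fell by less (-1.04). The neighbouring pseudogenes CR43086 and CR43087 on chromosome 3L fell as well. CR43086 was at 5.77, 6.02 and 9.99 TPM in Yki*+Dp glands, against 58, 65.7 and 62.9 TPM in control glands (log2 fold change -3.34 ± 0.17). CR43087 was at 38.7, 38.9 and 50.9 TPM in Yki*+Dp glands, against 239, 271 and 251 TPM in control glands (log2 fold change -2.93 ± 0.13, adjusted p = 1.38e-07), with 74.8, 83.7 and 82.9 TPM in YkiWT glands, below the control libraries as well.

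Spn75F and CR43087 were also the genes of at least 100 TPM with the largest falls, and the next of these fell by less. Met75Cb, a male-specific transcript, was at 1410, 1543 and 719 TPM in Yki*+Dp glands, against 1851, 4016 and 4733 TPM in control glands (log2 fold change -1.88 ± 0.44, adjusted p = 0.00546). The fucosyltransferase gene FucTA was at 80.3, 75 and 87.5 TPM in Yki*+Dp glands, against 133, 174 and 148 TPM in control glands (log2 fold change -1.28 ± 0.10). The glycosyltransferase gene Ugt35B1 was at 134, 100.5 and 138 TPM in Yki*+Dp glands, against 246, 283 and 216 TPM in control glands (log2 fold change -1.38 ± 0.16). In none of these did a Yki*+Dp library reach the lowest control library, a separation that nearly all called genes had. The lectin gene lectin-21Ca (-1.22) and the CG genes CG43103 (-1.76), CG42878 (-1.41), CG42467 (-1.38) and CG43993 (-1.32) completed the 10 abundant genes with the largest falls, Spn75F and CR43087 included. The endoplasmic reticulum isomerase gene Fkbp14, the next in order, was at 207, 209 and 260.4 TPM in Yki*+Dp glands, against 396, 431 and 377 TPM in control glands (log2 fold change -1.22 ± 0.17). Drip, an aquaporin gene, was at 21.2, 16.3 and 23.3 TPM in Yki*+Dp glands, against 32.6, 46.9 and 32.6 TPM in control glands (log2 fold change -1.22 ± 0.13).

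Est-6, the ejaculatory duct esterase gene, was at 23.5, 36.5 and 12 TPM in Yki*+Dp glands, against 34.6, 153 and 87.4 TPM in control glands (log2 fold change -2.16 ± 0.61, adjusted p = 0.0165), a call that was lost without Yki*+Dp replicate 3 or without control replicate 2. Of 6 tested markers of the ejaculatory duct and bulb, which were removed at dissection, Est-6 and EbpIII (-1.05) were called lower. The 6 markers summed to 192 to 590 TPM in Yki*+Dp libraries and 328 to 747 TPM in control libraries, with Dup99B at 431, 542 and 159 TPM in Yki*+Dp glands, against 273, 559.9 and 558 TPM in control glands. Acp54A1, Met75Cb, Spn77Bc (-1.89) and other falls vary with these markers among the control libraries, replicate 1 being the lowest of the 3 in each. Among the Yki*+Dp libraries, replicate 2 held the most Est-6 and Dup99B, the most Met75Cb and the least Acp54A1. The part of duct tissue in these falls was not tested.

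**Figure D5:**
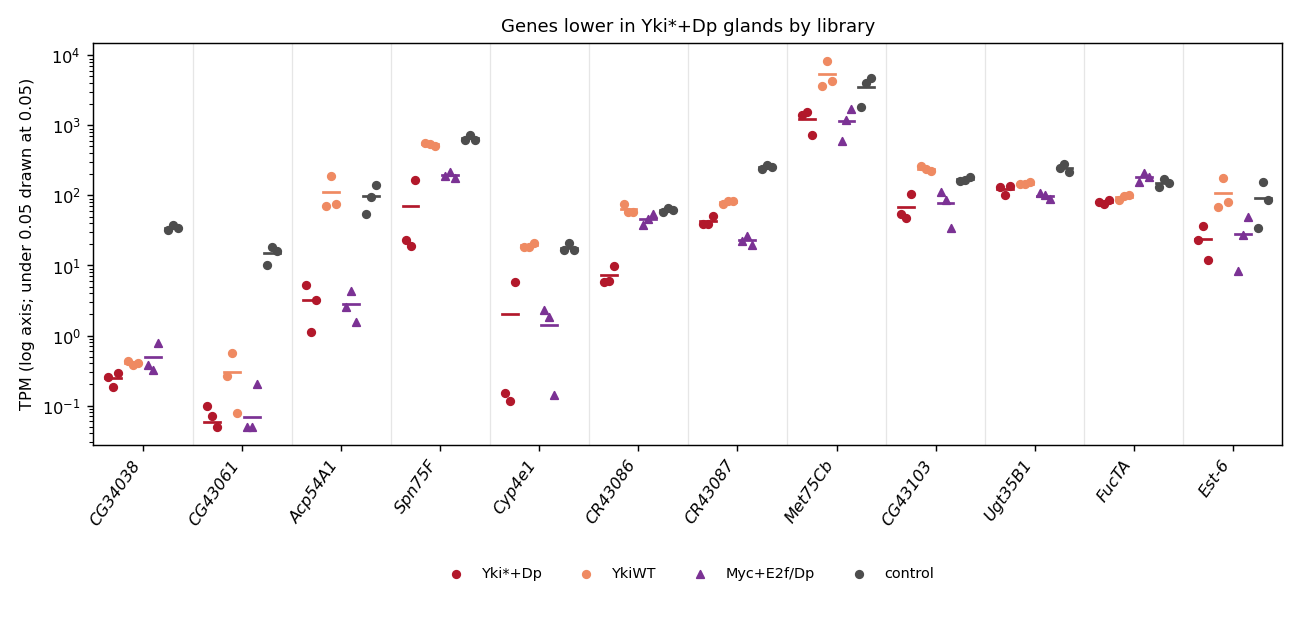
TPM of 12 genes called lower, on a log axis, with 1 point per library and a bar at the group mean (Yki*+Dp, YkiWT, Myc+E2f/Dp and control, from left to right). CG34038 and CG43061 are near 0 in all 3 oncogene genotypes and above 10 TPM in control, whereas Acp54A1, Spn75F, Cyp4e1 and CR43086 lie near the control libraries in YkiWT and below them in Yki*+Dp.

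Most seminal fluid genes lay somewhat below control, short of the call threshold. Of 41 tested Acp and Sfp genes, Acp54A1 and Sfp24F were called lower, Sfp79B higher, and 28 had a negative log2 fold change at an adjusted p under 0.05. The median was -0.63 after scaling, -0.25 on TPM as deposited and -0.69 with scaling by the 75th percentile. Sex peptide (SP), the signal for the female post-mating response, was at 16830, 19360 and 18230 TPM in Yki*+Dp glands, against 21720, 19780 and 22770 TPM in control glands (log2 fold change -0.63 ± 0.14). Acp62F, a protease inhibitor, was at 2002, 1617 and 1866 TPM in Yki*+Dp glands, against 2447, 2489 and 2276 TPM in control glands (log2 fold change -0.78 ± 0.14). Acp26Aa, the ovulation hormone ovulin, was at 3516, 2730 and 3707 TPM in Yki*+Dp glands, against 2598, 2802 and 2114 TPM in control glands (log2 fold change 0.02 ± 0.17). Of 11 tested sex peptide network genes none was called and 9 had a negative fold at an adjusted p under 0.05 (median -0.60).

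The machinery that makes and exports these proteins had smaller negative fold changes. Of 43 secretory pathway genes and 20 endoplasmic reticulum chaperone and stress genes none was called, and 31 and 11 of them had a negative fold at an adjusted p under 0.05 (33 and 15 unadjusted). The medians were -0.44 and -0.42 after scaling but -0.05 for each on TPM as deposited. The translocon gene Sec61α was at 224, 224 and 284 TPM in Yki*+Dp glands, against 269.6, 301 and 242 TPM in control glands (log2 fold change -0.54 ± 0.15). The chaperone gene Hsc70-3 was at 695, 566 and 891 TPM in Yki*+Dp glands, against 848, 889 and 697 TPM in control glands (log2 fold change -0.58 ± 0.22). As deposited, the libraries of the groups overlapped in both genes.

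Markers of the gland's own cell types gave no calls. Of 10 main cell markers none was called and 8 had a negative fold at an adjusted p under 0.05. They summed to 88720 to 97640 TPM in Yki*+Dp libraries and 108600 to 117200 TPM in control libraries, or 82330 to 93450 and 123100 to 159500 after scaling. Paired (prd), the transcription factor that specifies and maintains the gland, was at 151, 137 and 150.5 TPM in Yki*+Dp glands, against 119, 136 and 120.2 TPM in control glands (log2 fold change -0.16 ± 0.10). Of 6 secondary cell markers none was called (median -0.53, all 6 negative at an unadjusted p under 0.05), and dve, a secondary cell transcription factor, was at 9.74, 11.7 and 12.6 TPM in Yki*+Dp glands, against 10.8, 13.6 and 11.9 TPM in control glands (log2 fold change -0.45 ± 0.09). None of 18 gland identity and hormone receptor genes was called, with 4 positive and 7 negative folds at an unadjusted p under 0.05, at a median of -0.17, against 0.13 on TPM as deposited. Testis markers summed to 3.16 to 13.3 TPM in Yki*+Dp libraries and 3.11 to 31.7 TPM in control libraries, with none called. Neuron markers summed to 17.7 to 18.8 TPM in Yki*+Dp libraries and 9.31 to 11.4 TPM in control libraries, with Syx1A called (1.11). After scaling, their sums were 17.26 to 17.48 and 10.55 to 14.4.

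Several called genes stood side by side on the chromosomes. Of 439 genes called higher with a position in the annotation, 116 (26.42%) had another called gene of the same direction within 5 kb, against 901 of 7488 other tested genes (12.03%). Of the genes called lower with a position 28 (24.35%) had such a neighbour, against 218 of 7812 (2.79%). These shares are a description chosen after the values were seen, and neighbouring genes often belong to 1 family. The largest run of rises held CG13510, CG42565, CG4250, CG30269, CG30273 and CG13516 on chromosome 2R, from 22657901 to 22670622, where 9 genes were tested. In the GstE cluster on 2R (18398393 to 18409835) 5 of 8 tested genes were called higher, and BomS2, BomS3 and BomS5 lie just before it. The largest run of falls held Acp54A1, CR44391, Gbp1, CG43103 and CG43107 on 2R from 17133445 to 17140865, where 7 genes were tested. Gbp1, a growth-blocking peptide gene, was at 11.4, 12.2 and 22.1 TPM in Yki*+Dp glands, against 42.4, 49 and 53.4 TPM in control glands (log2 fold change -2.03 ± 0.28).

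Direct comparison with YkiWT glands, which shares no control library, asked how much of the response exceeded that of unmutated Yki. Against YkiWT 201 genes were called higher in Yki*+Dp (2.47% of the tested genes) and 126 lower (1.55%). The lines differ in the Yki mutations, in Dp and in yki level, which cannot be told apart. Among the septate junction genes 8 of 32 were higher than in YkiWT and none lower, with a median difference of 0.74 beside -0.0052 over all genes. Among cytoskeleton genes 8 of 45 were higher and none lower (median 0.50), including Act42A, at 51.8, 105 and 77.6 TPM in YkiWT glands (log2 fold change 1.76 ± 0.24, adjusted p = 0.000366). The median difference of the antimicrobial peptides was 0.04. Drs was at 6.47, 10.3 and 8.44 TPM in YkiWT glands, while Mtk was higher in Yki*+Dp (log2 fold change 2.60 ± 0.67, adjusted p = 0.0143). Obp56g was at 1765, 2014 and 611 TPM in YkiWT glands (log2 fold change -0.35 ± 0.58, adjusted p = 0.691), overlapping Yki*+Dp. CG34301 was at 14.6, 14.7 and 13.1 TPM there (log2 fold change 0.27 ± 0.19, adjusted p = 0.306).

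Apart from the Dp transgene (6.25), the genes furthest from YkiWT were lectin-28C (4.77), CG43125 (4.01), CG1607 (3.47) and mthl2 (3.19) among the rises and Acp54A1 (-5.03), Spn75F (-3.97) and Cyp4e1 (-3.58) among the named falls. CG1607, an amino acid transporter family gene, was at 9.59, 18.4 and 12.1 TPM in Yki*+Dp glands, against 0.036, 0.061 and 0.075 TPM in control glands (log2 fold change 3.64 ± 0.17). Of the markers of the ejaculatory duct and bulb, 4 of 6 were lower in Yki*+Dp than in YkiWT, at a median of -1.68. The part of duct tissue in the falls against YkiWT was not tested.

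Direct comparison with Myc+E2f/Dp glands, the other line with Dp, gave 449 genes higher in Yki*+Dp (5.52%) and 406 lower (5%). Of 47 tested replication genes 38 were lower in Yki*+Dp at a median of -2.10, as were 19 of 29 mitosis genes at a median of -1.67. A gene was tested where any 3 of the 12 libraries reached 1 TPM. Members near 0 in Yki*+Dp and control glands, such as PCNA, could thus enter through the Myc+E2f/Dp libraries. These shares are therefore partly set by that rule. Of the 32 septate junction genes 2 were higher in Yki*+Dp and none lower, at a median of 0.44, and Fas3 was at 45.5, 54 and 75.9 TPM in Myc+E2f/Dp glands. Cytoskeleton genes were higher in 8 of 45 (median 0.44), with zip at 35.3, 40.6 and 61.5 TPM in Myc+E2f/Dp glands (log2 fold change 1.30 ± 0.21, adjusted p = 0.00035). Muscle sheath markers were higher in 13 of 15 at a median of 1.22, and their part in the cytoskeleton values of this comparison was not tested. Secondary cell markers were higher in 3 of 6, and the sex peptide network in 3 of 11 at a median of 0.71.

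The comparisons share the Yki*+Dp libraries, so their joint counts are a description. Genes called higher against each of the other genotypes numbered 127, among them ex, AsnS, Jhe, tefu, p38a, p38c, Ssk and Act42A. The genes called lower against all of them numbered 4, namely CR43086, Spn75F, PolE4 and CG12164. PolE4, a small subunit of DNA polymerase epsilon, was at 7.61, 8.09 and 8.06 TPM in Yki*+Dp glands, against 13.8, 14.6 and 16.4 TPM in control glands (log2 fold change -1.20 ± 0.07). CG12164, with a CG number alone, was at 1.8, 1.52 and 2.55 TPM in Yki*+Dp glands, against 4.9, 7.09 and 7.07 TPM in control glands (log2 fold change -1.63 ± 0.15).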

How the data were processed

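Gene and transcript TPM tables were deposited by the authors, with 1 column per library. Per the labels and the study's methods, poly-A RNA was made into stranded TruSeq libraries, reads were trimmed with cutadapt 1.18 and quantified with kallisto on Ensembl BDGP6.28 transcripts, and sleuth was used for the study's tests. The kallisto version and options are not given in the sources used here. TPM divides out transcript length and depth, so the depth of a library is unknown. The gene columns equal the sums over transcripts.

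A gene was tested where 3 of the 12 libraries or more reached 1 TPM (8128 of 14323). Libraries were scaled by the median of ratios over 6633 genes at 1 TPM or more in every library. Values were fitted as log2(scaled TPM + 1) with limma 3.58.1 in R 4.3.3 (group means over 4 groups, empirical Bayes with a trend on mean level), with Benjamini-Hochberg adjustment over all tested genes. Calls needed an adjusted p under 0.05 and a log2 fold change of 1 or more, or of -1 or less. Replicates are labelled as independent pools of glands. The script was tested on simulated data. Positions came from Ensembl BDGP6.54, matched by symbol for 14017 genes.

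Genes named are the transgenes, the 15 largest changes in each direction, up to 10 abundant changes in each direction, called members of gene lists and genes the study names, and additions are marked in the text. The 15 largest changes were taken among called genes whose libraries did not overlap between the groups. Members and lists were chosen with earlier results of these data known. Alternatives were other scalings, pseudocounts of 0.5 and 0.1, filters, a fit of the groups compared alone, no trend, a replicate block, other fold thresholds and leaving out each library. No sequence is shown.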

Additional observations from a re-analysis of the deposited data

How the results depend on the processing

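The count of genes called between Yki*+Dp and control glands (449 higher and 119 lower) depended most on scaling and on the fold threshold. It was 722 higher and 48 lower on TPM as deposited, 993 and 664 with a fold threshold of 0.5 log2, and 183 and 22 with limma's treat against a log2 fold change of 1. The share higher among called genes was 79.05% in the fit reported, 93.77% on TPM as deposited, 59.93% at 0.5 log2 and 89.27% with treat. Leaving out each of the 6 libraries in turn gave 411 to 486 higher and 90 to 145 lower. Against YkiWT (201 and 126) TPM as deposited gave 365 higher and 72 lower, a pseudocount of 0.1 gave 214 lower, and leaving out each library gave 169 to 228 higher and 105 to 137 lower. Against Myc+E2f/Dp (449 and 406) TPM as deposited gave 233 higher and 839 lower, and leaving out each library gave 431 to 479 higher and 371 to 441 lower. Direction turned in 13 of 240 named genes, none of them called and all near 0. On TPM as deposited the log2 fold change was 0.13 for E2f1, 0.088 for Met, 0.29 for Mhc, 0.19 for Myc, 0.22 for Pfk, 0.18 for if, 0.31 for p38b, 0.23 for prd and 0.30 for sd, each negative in the fit reported. With scaling by the 75th percentile it was -0.045 for Acp26Aa and -0.026 for dlg1. Leaving out each library gave -0.095 to 0.18 for Acp26Aa, -0.021 to 0.10 for Cdk1, -0.14 to 0.035 for Mhc, -0.012 to 0.070 for dlg1 and -0.0039 to 0.36 for hoka. Leaving out 1 library ended the call of 24 named genes, without Yki*+Dp replicate 2 those of Tgi (0.98), vari (0.94), Ilp8 (0.88), Dad (0.98), Thor (0.82), Ldh (1.03), lectin-21Ca (-0.96), EbpIII (-0.72), Sfp24F (-0.89) and BomS3 (1.22) among them, without Yki*+Dp replicate 1 those of Hex-C (0.82), BomS3 (1.11), Hsp27 (1.91) and Cyp4e2 (-0.90), without Yki*+Dp replicate 3 those of Hsp27 (1.87) and Est-6 (-1.75), and without control replicate 2 those of Hsp23 (1.69), Hsp27 (1.91), Thor (1.09), BomS3 (1.30), vari (0.97), Spn77Bc (-1.54) and Est-6 (-1.75). Without control replicate 1 the calls of vari (0.97), Thor (1.03), BomS3 (1.24), Hex-C (0.96), EbpIII (-0.99) and Sfp24F (-0.99) were lost, and without control replicate 3 those of Hsp27 (1.87) and Cyp4e2 (-0.97). Of the 195 called named genes, 97 kept their call under every alternative, of 17, in which they were tested. Genes removed by the level filter of an alternative were not tested in that run. The cause of these shifts was not tested.

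Same-numbered libraries did not pair: deviations from the group means correlated at 0.021 to 0.32 between Yki*+Dp and control libraries of the same number and at -0.26 to 0.18 between those of different numbers, and 2 of 6 libraries correlated best with their own number. With the replicate block 449 genes were called higher and 120 lower against control, 200 and 133 against YkiWT, and 450 and 408 against Myc+E2f/Dp. Of the named genes, Thor and BomS3 lost their call against control under the block. With 3 libraries a group and no depth in TPM, changes of genes near 1 TPM are the least certain.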

Other observations

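Several housekeeping gene families had no calls. None of 85 cytoplasmic ribosomal protein genes was called in Yki*+Dp against control glands (median -0.17, and 0.21 on TPM as deposited), and none of 69 oxidative phosphorylation, 73 mitochondrial ribosomal protein or 25 Rab GTPase genes. An unadjusted p under 0.05 (limma) was reached by 18 cytoplasmic ribosomal protein genes, all with negative folds, by 2 oxidative phosphorylation genes with positive and 12 with negative folds, by 13 and 2 mitochondrial ribosomal protein genes and by 10 and 3 Rab genes. Of 36 proteasome genes none was called either, although 16 had a positive log2 fold change at an adjusted p under 0.05 (limma, Benjamini-Hochberg), with a median of 0.21. Of 20 vacuolar ATPase genes none was called, with a median of 0.19.

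A few families were split. Beside 5.52% higher and 1.46% lower of all genes, serpins had 18.18% and 9.09%, and UDP-glycosyltransferases 14.29% and 7.14%. Of the cuticle protein genes 27.27% and of the chitinase and Idgf genes 25% were called higher. Of 22 tested serpin genes 4 were called higher and 2 lower: Spn55B was at 27.4, 37.4 and 22.3 TPM in Yki*+Dp glands, against 4.47, 5.08 and 4.54 TPM in control glands, Spn77Ba at 5.72, 9.29 and 6.73 TPM in Yki*+Dp glands, against 0.957, 1.41 and 0.808 TPM in control glands and Spn43Ab at 5.37, 8.24 and 5.92 TPM in Yki*+Dp glands, against 0.596, 1.25 and 1.05 TPM in control glands, beside Spn27A, while Spn75F and Spn77Bc fell. Of 14 UDP-glycosyltransferase genes Ugt302C1, at 46, 68.2 and 47.6 TPM in Yki*+Dp glands, against 8.27, 11.9 and 12.5 TPM in control glands, and Ugt36D1, at 34.3, 58.8 and 43.4 TPM in Yki*+Dp glands, against 8.06, 10.8 and 10.6 TPM in control glands, were called higher, and Ugt35B1 lower. Of 11 tested cuticle protein genes TwdlE, Cpr67Fb and Lcp9 were called higher, with Cpr67Fb at 4.84, 2.48 and 5.18 TPM in Yki*+Dp glands, against 0.106, 0.497 and 0.627 TPM in control glands and Lcp9 at 3.02, 5.07 and 3.53 TPM in Yki*+Dp glands, against 0.414, 0.647 and 0.816 TPM in control glands. Of 8 chitinase and Idgf genes Idgf4 and Cht2 were called higher, with Cht2 at 8.23, 13.9 and 9.01 TPM in Yki*+Dp glands, against 2.27, 3.04 and 2.51 TPM in control glands. Of 14 tested chemoreceptor genes Ir76a was the member called (7.14%, beside 5.52% of all genes called higher). It was at 5.49, 7.17 and 5.73 TPM in Yki*+Dp glands, against 1.39, 2.06 and 1.6 TPM in control glands.

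The share of genes called lower differed between chromosomes, which was not tested: 8 of 1255 tested genes of the X chromosome (0.637%), against 33 of 1664 of 2R (1.98%) and 29 of 1473 of 2L (1.97%). Genes called higher made up 4.78% of those tested on X and 6.79% on 2R.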
